A study of Mus musculus with 6 samples.

Results

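Genes for the factors that start and extend protein synthesis were followed in RNA that came down with tagged DAZL, in RNA that came down with a poly(A)-binding protein, and in total RNA of the same kind of culture. Members were the genes whose array name begins with Eif1 to Eif6, Eef1 or Eef2, leaving out the kinases Eif2ak and Eef2k and the transporter Eif4enif. The rule found 53 genes read by 120 probes, among 14994 genes that could be tested on the arrays. The array names Eif2c1 to Eif2c4 are older names of the Argonaute genes Ago1 to Ago4, which encode small RNA binding proteins and no translation factor, so those 4 genes are given apart. Of the other 49 genes, 12 encode eIF3 subunits, 12 encode eIF4 factors and their binding proteins, 18 encode other initiation factors and 7 carry elongation factor names. In no group did both arrays read Eif2b3 or Eef1a2 well above background, so neither was tested, which left 47 translation factor genes.

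Initiation begins when eIF2, carrying GTP and the initiator tRNA, joins the small ribosomal subunit together with eIF1, eIF1A, eIF3 and eIF5. The eIF4F complex, made of the cap-binding eIF4E, the scaffold eIF4G and the helicase eIF4A, brings that subunit to the mRNA cap, and eIF5B then joins the large subunit. PABP1, which binds the poly(A) tail, also binds eIF4G, and DAZL is a germ cell RNA-binding protein reported to contact PABP1 and to promote translation of its targets. Many mRNAs for elongation factors and some for initiation factors begin with a run of pyrimidines, the terminal oligopyrimidine (TOP) motif, through which their translation is controlled as a group.

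The cells were embryonic stem cells of the V6.5 line, of mixed C57BL/6 and 129SV strain, which carried DAZL fused to GFP and V5 and had spent 12 days in differentiation medium. The labels call them primordial germ cells made in vitro, and every group carries the tagged DAZL. After ultraviolet crosslinking, an anti-GFP antibody (GFP IP, 2 arrays) or an anti-PABP1 antibody (PABP1 IP, 2 arrays) pulled down bound RNA, and total RNA taken without an antibody (input) was read on 2 arrays. No array of untagged cells or of a nonspecific antibody was used here, the labels do not say that replicates came from separate cultures, and the p-values cover no more than the spread among the 6 arrays, which may be technical. The cultures are bulk samples, in which fewer cells of a type and less RNA per cell cannot be told apart. For both immunoprecipitations, in addition, recovery and abundance enter the signal together.

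Each array read 41174 probes by 43379 spots, of which 41.5% to 52.6% were well above background and 0 were saturated. Of the marker genes for primordial germ cells, 9 of 12 were tested, and 6 were higher and 1 lower in the GFP IP than in input, where 18.5% of all genes tested were higher and 36.6% lower. Their signals relative to the 75th percentile summed to between 151 and 164 in the GFP IP, between 208 and 236 in the PABP1 IP and between 93.0 and 99.1 in input. Dazl itself stood 3.80 ± 0.26 log2 units above input in the GFP IP and lay at -1.82 in the PABP1 IP against input. It is on this list and is also the gene of the tagged protein that every group carries, so it is no plain germ cell marker here. In no group did both arrays read Ddx4, Sycp3 or Prdm14 well above background. Of 10 markers of cardiac and smooth muscle, 9 were tested, and all 9 were lower in the GFP IP than in input. Their summed signals were 30.2 to 40.1 in the GFP IP, 175 to 191 in the PABP1 IP and 81.6 to 98.1 in input. All 4 tested fibroblast markers, of 5, were also lower in the GFP IP than in input, with summed signals of 31.6 to 55.4 in the GFP IP, 101 to 120 in the PABP1 IP and 92.4 to 125 in input. Of the neural list 3 of 5 markers were tested, and of the visceral endoderm list 1 of 6, and Pax6, Map2, Afp, Alb, Ttr, Apoa1 and Apob did not reach the detection that testing required. The neural sums were 14.7 to 16.9 in the GFP IP, 4.62 to 7.08 in the PABP1 IP and 13.8 to 15.5 in input, and Apoa2, the tested endoderm marker, had 0.157 to 0.450 in the GFP IP, 1.85 to 2.98 in the PABP1 IP and 0.321 to 0.395 in input. The part of these cell types in the results given next was not tested.

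Levels are log2 processed signals minus the 75th percentile of the array, and they are compared between arrays for the same gene only. Differences are log2 differences with their standard error from limma (2 arrays per group), and a gene passed at a Benjamini-Hochberg adjusted p under 0.05 over all genes tested. In the GFP IP against input, 11 of the 47 factor genes were higher, 21 were lower and 15 did not pass. Over all genes tested 55.0% passed, 18.5% as higher and 36.6% as lower, so the factor genes, at 23.4% and 44.7%, were near the background. Against input, the PABP1 IP had 19 factor genes higher, 10 lower and 18 did not pass (40.4% and 21.3%), beside 53.9% of all genes passing, 30.0% higher and 23.8% lower. In the GFP IP against the PABP1 IP, 11 were higher, 24 lower and 12 did not pass (23.4% and 51.1%), beside 63.6% of all genes, 22.3% higher and 41.3% lower. The median difference of the factor genes was -0.51 in the GFP IP and 0.22 in the PABP1 IP against input, and -0.61 between the antibodies. Over all genes the medians were -0.51, 0.12 and -0.58, so as a whole the factor genes lay near the median gene, while single factors and paralogues lay far on either side of it. The 3 comparisons share arrays, and their values for a gene are given side by side as such.

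**Figure D1:**
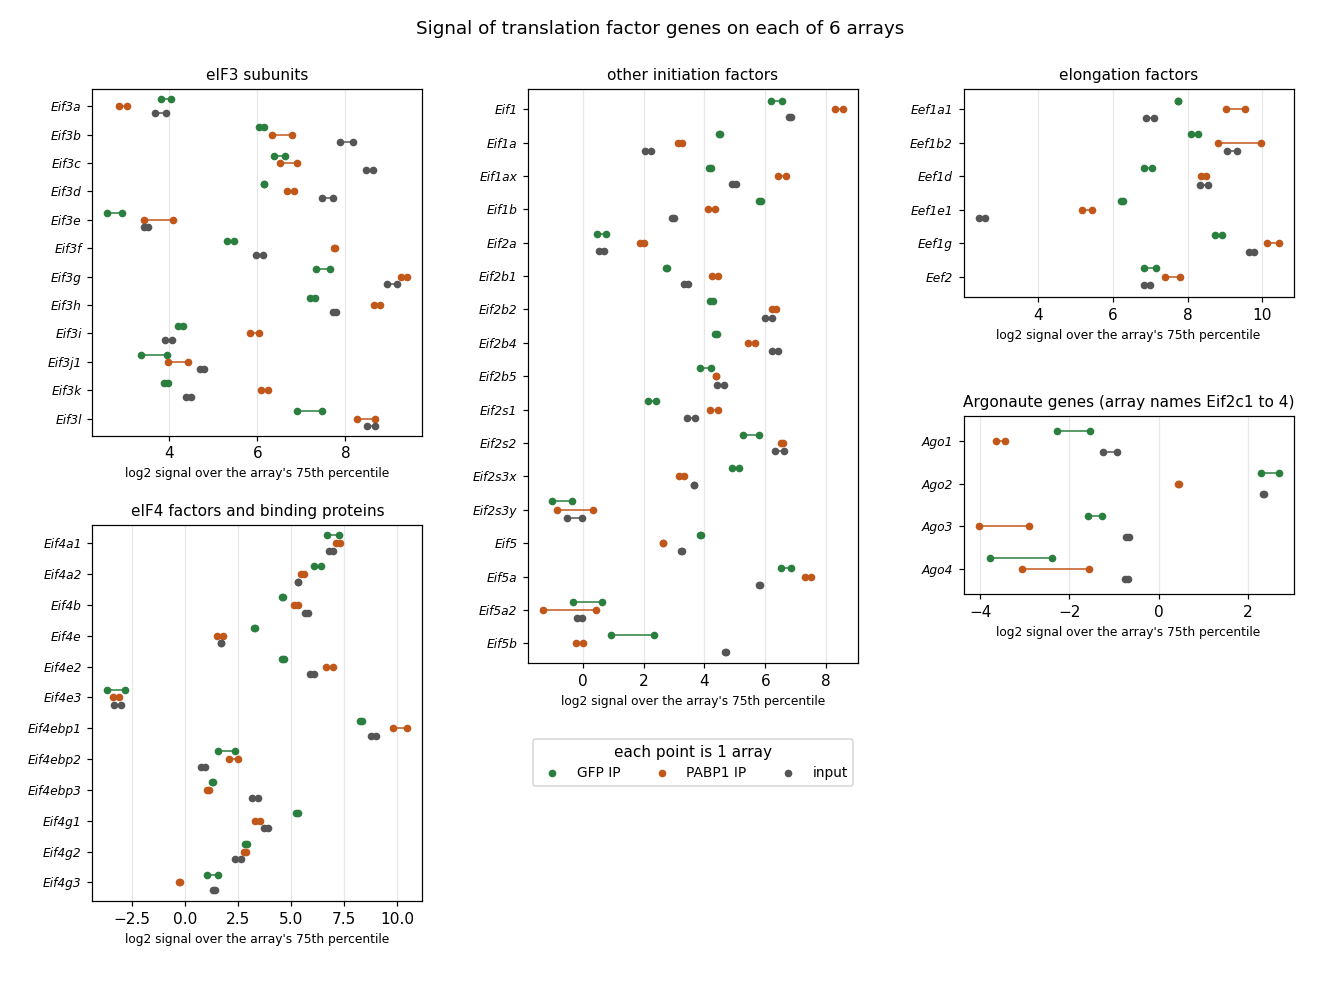
Log2 signal minus the array's 75th percentile (x axis) of the tested translation factor and Argonaute genes, 1 row per gene and 1 point per array, with the GFP IP in green above the PABP1 IP in orange above input in grey, and a line joining the 2 arrays of a group. Replicates lie close together for most genes, Eif1b, Eef1e1 and Eif4g1 stand to the right in the GFP IP, and Eif3f, Eif3k, Eif1 and Eif1ax stand to the right in the PABP1 IP.

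The genes of eIF3, the large complex that bridges the small ribosomal subunit and the mRNA, were mostly lower in the GFP IP than in input. Of 12 subunit genes 0 were higher, 9 lower (75%) and 3 did not pass, beside 18.5% higher and 36.6% lower over all genes. Their median was -0.89, which is 0.39 below the median of all genes. The lower count depended on the scaling, at 4 with the median of all probes or after quantile normalization and 0 with spike-in scaling, and it was 4 without input replicate 1 and 5 without input replicate 2. Among the core subunit genes, Eif3c had levels of 6.37 and 6.63 in the GFP IP, 6.89 and 6.51 in the PABP1 IP and 8.62 and 8.46 in input. It was thus lower than input in both immunoprecipitations, without overlap, by 4.11-fold in the GFP IP (-2.04 ± 0.21, adjusted p = 0.00223) and 3.59-fold in the PABP1 IP (-1.84 ± 0.21, adjusted p = 0.00187). Eif3b, another core subunit, was also lower in both on its brightest probe, at -1.93 ± 0.22 in the GFP IP and -1.45 ± 0.22 in the PABP1 IP. A second, dimmer Eif3b probe lay near input, at -0.15 in the GFP IP and -0.16 in the PABP1 IP, so the size depends on the probe. Eif3d, which can bind the cap of some mRNAs, was lower in both too, at -1.44 ± 0.17 and -0.84 ± 0.17. With spike-in scaling the PABP1 IP differences of these 3 genes turned to 0.43 for Eif3c and 0.82 for Eif3b, which did not pass, and to 1.44 for Eif3d, which passed as higher (adjusted p = 0.00925). Eif3g was lower than input in the GFP IP, at -1.56 ± 0.19, while its PABP1 IP difference from input, 0.27 ± 0.19, did not pass (adjusted p = 0.288).

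Other eIF3 genes were higher in the PABP1 IP than in input. In that comparison 4 of 12 were higher, 4 lower and 4 did not pass (33.3% and 33.3%, beside 30.0% and 23.8% of all genes). Eif3f had levels of 5.48 and 5.30 in the GFP IP, 7.74 and 7.77 in the PABP1 IP and 6.12 and 5.97 in input. Its PABP1 IP arrays lay above all others, by 3.26-fold over input (1.71 ± 0.16, adjusted p = 0.00127). Eif3k read 3.89 and 3.96 in the GFP IP, 6.23 and 6.08 in the PABP1 IP and 4.50 and 4.39 in input, which is the same order of groups. Eif3i, an essential WD-repeat subunit, was 1.96 ± 0.17 above input in the PABP1 IP and did not pass in the GFP IP (0.26 ± 0.17, adjusted p = 0.231), and Eif3h was 0.98 ± 0.16 above input in the PABP1 IP. Between the antibodies 8 eIF3 genes were lower in the GFP IP, 1 was higher and 3 did not pass (66.7% lower and 8.3% higher, beside 41.3% and 22.3% of all genes). The lower ones were led by Eif3f at 5.14-fold (-2.36 ± 0.16, adjusted p = 0.000477) and Eif3k at 4.69-fold (-2.23 ± 0.16, adjusted p = 0.000477). Eif3g (-1.83 ± 0.19), Eif3i (-1.69 ± 0.17), Eif3h (-1.48 ± 0.16), Eif3l (-1.29 ± 0.26), Eif3e (-0.998 ± 0.27) and Eif3d (-0.60 ± 0.17) were the other lower ones.

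Eif3a, the largest subunit and the scaffold of the complex, went the other way. It read 3.80 and 4.05 in the GFP IP, 2.85 and 3.03 in the PABP1 IP and 3.92 and 3.68 in input, so the GFP IP and input arrays overlapped and both lay above the PABP1 IP arrays. The difference between the antibodies was 0.98 ± 0.19 (adjusted p = 0.00674). A second, dimmer Eif3a probe did not overlap input in the GFP IP, at -1.86, and lay at -5.15 in the PABP1 IP against input and 3.29 between the antibodies, so the probes disagree on the GFP IP against input. Eif3j1, a loosely held subunit, was lower in the GFP IP than in input (-1.08 ± 0.27, adjusted p = 0.0218), and its other differences did not pass. The calls of Eif3b, Eif3c, Eif3d and Eif3g against input in the GFP IP held when any 1 array was left out. Those of Eif3f, Eif3h, Eif3j1 and Eif3k were lost without either input array (highest adjusted p = 0.134, 0.188, 0.107 and 0.201). That of Eif3f was also lost without GFP IP replicate 2, that of Eif3j1 without GFP IP replicate 1, that of Eif3k without either GFP IP array and that of Eif3h without any 1 array, while that of Eif3l was lost without input replicate 1 (0.0595). The call of Eif3a in the PABP1 IP against input was lost without PABP1 IP replicate 1 or either input array (0.0912), and that of Eif3d without input replicate 1 (0.0823). Between the antibodies the call of Eif3d was lost without any 1 array other than PABP1 IP replicate 2 (0.101) and that of Eif3e without GFP IP replicate 2 or PABP1 IP replicate 2 (0.0920). The scaling of the arrays also mattered. After quantile normalization 3 eIF3 genes were lower between the antibodies and 3 higher, and their median lay 0.22 above that of all genes in place of 0.56 below it. The lower calls of Eif3f, Eif3i and Eif3k held there, while those of Eif3d, Eif3e, Eif3g, Eif3h and Eif3l were lost. The median against input also changed side, to 0.11 above all genes, with normexp background and to 0.17 with no filter on dim probes.

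**Figure D2:**
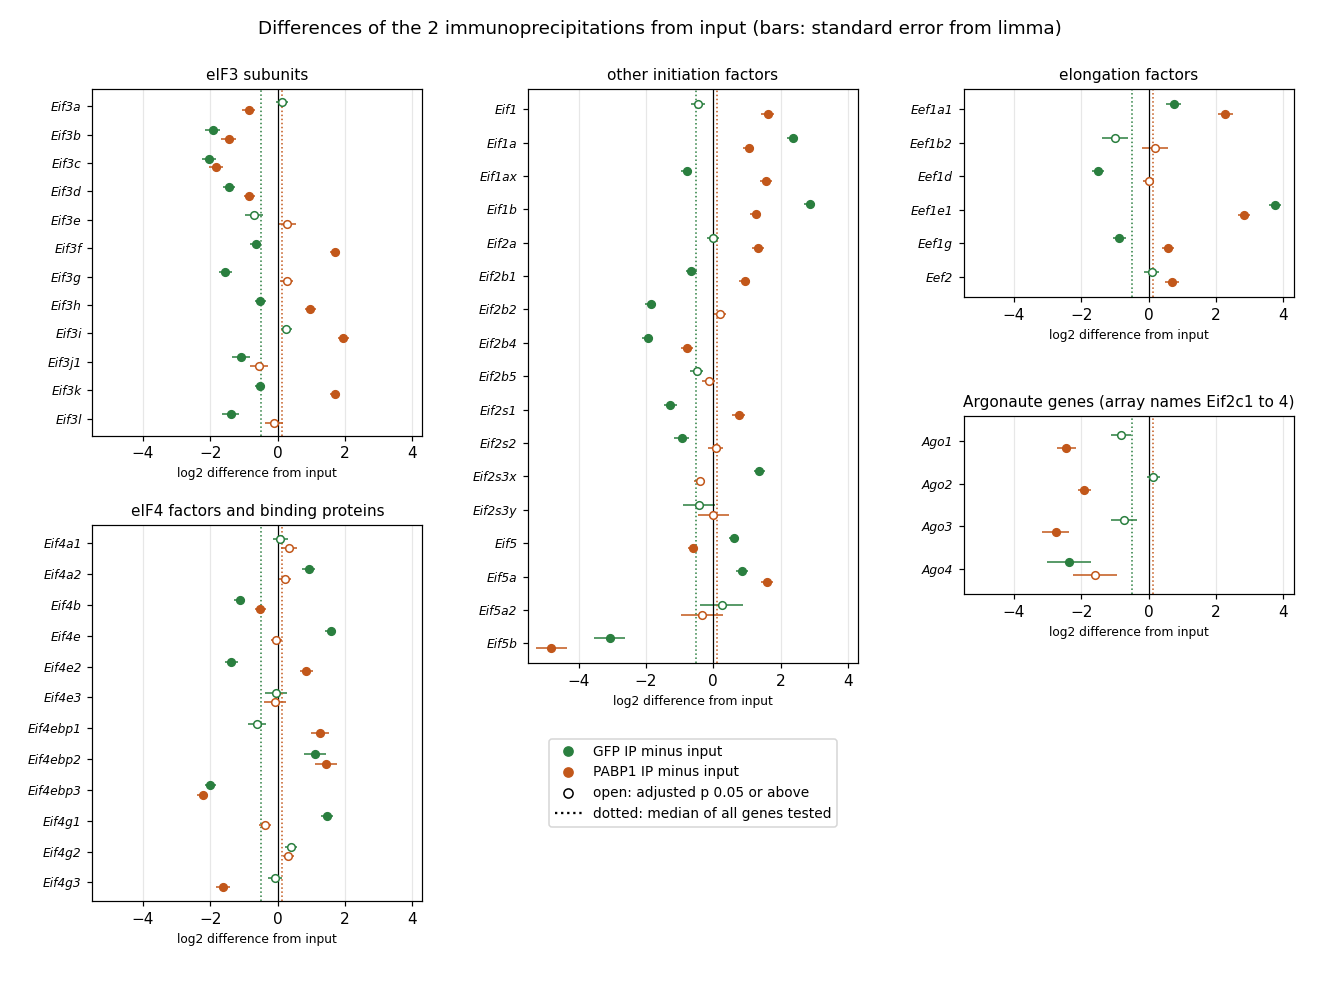
Log2 difference from input (x axis) of the GFP IP (green) and of the PABP1 IP (orange) for each tested gene, with the standard error from limma as a bar, filled points past the threshold, and dotted lines at the medians of all genes, -0.51 and 0.12. Eif5b lies far to the left and Eef1e1 to the right in both, while Eif3f, Eif3k, Eif1ax, Eif2s1 and Eif4e2 lie left of 0 in the GFP IP and right of it in the PABP1 IP.

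The eIF4 genes held both the cap-binding machinery and its inhibitors. Of 12 tested 4 were higher, 3 lower and 5 did not pass in the GFP IP against input (33.3% and 25%, beside 18.5% and 36.6% of all genes). Their median was 0.02, which is 0.52 above that of all genes. Eif4e, the cap-binding protein, had levels of 3.29 and 3.24 in the GFP IP, 1.51 and 1.79 in the PABP1 IP and 1.68 and 1.69 in input. Only the GFP IP arrays stood apart, by 2.98-fold over input (1.58 ± 0.17, adjusted p = 0.00236) and 3.06-fold over the PABP1 IP (1.61 ± 0.17, adjusted p = 0.000965). Eif4e2, a paralogue that binds the cap and takes part in repression, showed another order, with 4.56 and 4.64 in the GFP IP, 6.99 and 6.65 in the PABP1 IP and 6.07 and 5.88 in input. It was 2.60-fold lower than input in the GFP IP (-1.38 ± 0.19, adjusted p = 0.00379) and 1.80-fold higher in the PABP1 IP (0.85 ± 0.19, adjusted p = 0.0145), and it differed by -2.23 ± 0.19 between the antibodies. Eif4e3, the third member, was dim, not well above background in input, and passed in no comparison.

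Among the scaffold genes, Eif4g1 had levels of 5.23 and 5.30 in the GFP IP, 3.54 and 3.27 in the PABP1 IP and 3.88 and 3.70 in input. It was 2.78-fold higher than input in the GFP IP (1.47 ± 0.18, adjusted p = 0.00284) and 3.62-fold higher than in the PABP1 IP (1.86 ± 0.18, adjusted p = 0.000776). Eif4g3 also stood above the PABP1 IP in the GFP IP (1.55 ± 0.21, adjusted p = 0.00216), but there the PABP1 IP was the group that left input (-1.62 ± 0.21, adjusted p = 0.00272), and the GFP IP overlapped it (-0.07 ± 0.21). Eif4g2, which encodes a scaffold without the eIF4E binding site, passed in no comparison, with differences of 0.39 ± 0.17, 0.32 ± 0.17 and 0.07 ± 0.17. Of the helicase genes Eif4a2 was 0.92 ± 0.18 above input in the GFP IP, and Eif4a1 lay at 0.08 ± 0.23 (adjusted p = 0.768). Eif4b, whose product stimulates the helicase, was lower than input on its brightest probe in the GFP IP (-1.13 ± 0.16) and in the PABP1 IP (-0.51 ± 0.16). Its 2 other probes lay above input, at 0.37 and 0.33 in the GFP IP and 0.38 and 0.72 in the PABP1 IP, and both calls were lost with the mean of the kept probes.

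The genes of the eIF4E binding proteins, which hold eIF4E away from eIF4G, each had a pattern of their own. Eif4ebp1 had levels of 8.23 and 8.35 in the GFP IP, 10.48 and 9.80 in the PABP1 IP and 9.01 and 8.78 in input, and was 2.37-fold higher than input in the PABP1 IP (1.25 ± 0.27, adjusted p = 0.0126). Eif4ebp2 was higher than input in both immunoprecipitations, at 1.10 ± 0.33 in the GFP IP and 1.44 ± 0.33 in the PABP1 IP. Eif4ebp3 had 1.31 and 1.27 in the GFP IP, 1.01 and 1.13 in the PABP1 IP and 3.43 and 3.16 in input. It was therefore lower in both, 4.00-fold in the GFP IP (-2.00 ± 0.17, adjusted p = 0.00174) and 4.67-fold in the PABP1 IP (-2.22 ± 0.17, adjusted p = 0.000964), and a second probe gave -1.89 and -2.27. Over the 12 eIF4 genes, 3 were higher, 3 lower and 6 did not pass in the PABP1 IP against input (25% and 25%, beside 30.0% and 23.8% of all genes). Between the antibodies 4 were higher, 3 lower and 5 did not pass (33.3% and 25%, beside 22.3% and 41.3% of all genes). Their median there lay 0.63 above that of all genes.

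Several eIF4 calls rested on single arrays. Against input in the GFP IP, that of Eif4a2 was lost without either input array (highest adjusted p = 0.0690) and that of Eif4ebp2 without GFP IP replicate 2 or either input array (0.154). In the PABP1 IP against input, Eif4ebp1 was lost without input replicate 2 (0.0755), Eif4ebp2 and Eif4e2 without PABP1 IP replicate 1 or either input array (0.0811 and 0.0975), and Eif4b without any 1 array (0.222). Between the antibodies Eif4a2 was lost without any 1 array other than GFP IP replicate 1 (0.0818) and Eif4b without any 1 array other than PABP1 IP replicate 2 (0.0823). The calls of Eif4e, Eif4g1 and Eif4ebp3 held without any 1 array. Scaling to the spike-in controls moved all genes at once, and under it no factor gene was higher in the GFP IP than in the PABP1 IP. Probes of a gene did not always go together either: a second Eif4e probe gave 0.79 in the GFP IP and 1.02 in the PABP1 IP against input and -0.23 between them, while a second Eif4g1 probe gave 0.37, -0.85 and 1.22.

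Of the remaining initiation factor genes, 17 of 18 tested, 5 were higher, 7 lower and 5 did not pass in the GFP IP against input. These are 29.4% and 41.2%, beside 18.5% and 36.6% of all genes, and their median lay 0.06 above that of all genes. In the PABP1 IP against input 8 were higher, 3 lower and 6 did not pass (47.1% and 17.6%, beside 30.0% and 23.8%). Between the antibodies 5 were higher, 9 lower and 3 did not pass (29.4% and 52.9%, beside 22.3% and 41.3%). The genes of eIF1 and eIF1A, small factors that scan for the start codon, divided by paralogue. Eif1b had levels of 5.78 and 5.86 in the GFP IP, 4.34 and 4.11 in the PABP1 IP and 3.01 and 2.92 in input. The 3 groups were apart, and Eif1b was 7.26-fold higher than input in the GFP IP (2.86 ± 0.16, adjusted p = 0.00145), 2.40-fold higher in the PABP1 IP (1.26 ± 0.16, adjusted p = 0.00265) and 3.03-fold higher in the GFP IP than in the PABP1 IP (1.60 ± 0.16, adjusted p = 0.000911). Eif1 read 6.54 and 6.18 in the GFP IP, 8.29 and 8.55 in the PABP1 IP and 6.85 and 6.77 in input. Here only the PABP1 IP stood above input, by 3.06-fold (1.61 ± 0.20, adjusted p = 0.00235), and Eif1 was 4.18-fold lower in the GFP IP than in the PABP1 IP (-2.06 ± 0.20, adjusted p = 0.000806).

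The same contrast appeared between the genes of eIF1A. Eif1a had 4.52 and 4.49 in the GFP IP, 3.12 and 3.27 in the PABP1 IP and 2.26 and 2.04 in input, and was 5.13-fold higher than input in the GFP IP (2.36 ± 0.17, adjusted p = 0.00145) and 1.31 ± 0.17 above the PABP1 IP. Eif1ax, its X-linked counterpart, which the array lists under the older name Eif1ay, had 4.14 and 4.23 in the GFP IP, 6.67 and 6.42 in the PABP1 IP and 5.05 and 4.89 in input. It was lower than input in the GFP IP (-0.79 ± 0.17, adjusted p = 0.0142), higher in the PABP1 IP (1.58 ± 0.17, adjusted p = 0.00170) and 5.15-fold lower between the antibodies (-2.36 ± 0.17, adjusted p = 0.000497). Whether paralogues differed from each other was not tested. A second Eif1a probe gave 2.24, 0.47 and 1.76 in the 3 comparisons, and a second, dimmer Eif1ax probe gave 1.35, 0.91 and 0.44, against the direction of the brighter one in the GFP IP. Eif1 had a dimmer probe at 0.45 in the GFP IP against input and -2.32 between the antibodies. The call of Eif1ax against input in the GFP IP was lost without GFP IP replicate 1 or either input array (highest adjusted p = 0.101).

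On their brightest probes, the genes for the 3 subunits of eIF2, which delivers the initiator tRNA, did not move together. Eif2s1, the alpha subunit that stress kinases phosphorylate, had levels of 2.42 and 2.14 in the GFP IP, 4.19 and 4.43 in the PABP1 IP and 3.69 and 3.42 in input. It was 2.42-fold lower than input in the GFP IP (-1.27 ± 0.20, adjusted p = 0.00547), 1.69-fold higher in the PABP1 IP (0.76 ± 0.20, adjusted p = 0.0265) and 4.08-fold lower between the antibodies (-2.03 ± 0.20, adjusted p = 0.000856). Eif2s2, the beta subunit, was also lower in the GFP IP than in input (-0.94 ± 0.23, adjusted p = 0.0205) and, on its brightest probe, than in the PABP1 IP (-1.01 ± 0.23, adjusted p = 0.0128). A second Eif2s2 probe gave -1.06 in the GFP IP and -1.42 in the PABP1 IP against input, and 0.36 between the antibodies. The Eif2s2 call between the antibodies was lost with the mean of the kept probes. Eif2s3x, the X-linked gene of the gamma subunit, had 5.14 and 4.90 in the GFP IP, 3.17 and 3.33 in the PABP1 IP and 3.65 and 3.64 in input. On its brightest probe it was 2.59-fold higher than input in the GFP IP (1.37 ± 0.17, adjusted p = 0.00295) and 3.41-fold higher than in the PABP1 IP (1.77 ± 0.17, adjusted p = 0.000766). Its 2 dimmer probes gave -0.79 and -0.38 in the GFP IP against input and -0.53 and -1.15 between the antibodies, so the direction of Eif2s3x depends on the probe. Eif2s3y, the Y-linked gene, passed in no comparison, with a GFP IP difference of -0.42 ± 0.47 from input.

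Of the 4 tested genes of eIF2B, the exchange factor that recharges eIF2 with GTP, 3 were lower in the GFP IP than in input and 1 did not pass. Over all genes 36.6% were lower in that comparison. Eif2b4 had 4.40 and 4.35 in the GFP IP, 5.65 and 5.42 in the PABP1 IP and 6.43 and 6.22 in input, so the 3 groups were apart. On its brightest probe it was 3.86-fold lower than input in the GFP IP (-1.95 ± 0.17, adjusted p = 0.00186) and lower in the PABP1 IP (-0.79 ± 0.17, adjusted p = 0.0142). A second, dimmer Eif2b4 probe gave -0.50 in the GFP IP and 0.50 in the PABP1 IP. The PABP1 IP call was lost with the mean of the kept probes. Eif2b2 was 3.63-fold lower than input in the GFP IP (-1.86 ± 0.17) and 4.17-fold lower than in the PABP1 IP (-2.06 ± 0.17, adjusted p = 0.000548). Eif2b1 was lower than input in the GFP IP (-0.65 ± 0.16) and higher in the PABP1 IP (0.94 ± 0.16). Eif2b5, the catalytic subunit, lay at -0.49 ± 0.19 in the GFP IP against input and did not pass (adjusted p = 0.0823). Eif2a, which encodes a separate tRNA-binding factor in spite of its name, was higher than input in the PABP1 IP (1.32 ± 0.18) and lay at -0.01 ± 0.18 in the GFP IP.

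The eIF5 names cover unlike proteins. Eif5b, the factor that joins the ribosomal subunits, had levels of 0.92 and 2.34 in the GFP IP, -0.22 and 0.00 in the PABP1 IP and 4.72 and 4.69 in input. Both immunoprecipitations lay far below input, and no member had a larger decrease in either, at 8.41-fold in the GFP IP (-3.07 ± 0.46, adjusted p = 0.00478) and 28.1-fold in the PABP1 IP (-4.81 ± 0.46, adjusted p = 0.00133). Its 4 other kept probes were also below input, from -3.09 to -0.78 in the GFP IP and from -5.57 to -1.31 in the PABP1 IP. Of the lower calls against input, that of Eif5b held under all 17 alternative settings in both comparisons, and no other did. Eif5, which makes eIF2 hydrolyse GTP, had 3.88 and 3.86 in the GFP IP, 2.62 and 2.64 in the PABP1 IP and 3.26 and 3.23 in input. On its brightest probe it was a little higher than input in the GFP IP (0.62 ± 0.14), lower in the PABP1 IP (-0.61 ± 0.14) and 2.36-fold higher between the antibodies (1.24 ± 0.14, adjusted p = 0.00130). Its other kept probes gave 1.26 and -1.01 in the GFP IP against input. The call of Eif5 there was lost with the mean of the kept probes. Eif5a, a hypusine-bearing factor that aids the elongating ribosome, was higher than input in both, at 0.86 ± 0.18 in the GFP IP and 1.60 ± 0.18 in the PABP1 IP. Its paralogue Eif5a2 did not pass on its brightest probe (0.25 ± 0.63 in the GFP IP), while its other probe gave 3.75 in the GFP IP and 2.16 in the PABP1 IP.

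Calls of this group that rested on single arrays were those of Eif2b1, Eif2s2, Eif5 and Eif5a in the GFP IP against input. They were lost without either input array (highest adjusted p = 0.136, 0.120, 0.103 and 0.0779), those of Eif2b1 and Eif5 also without either GFP IP array, and those of Eif2s2 and Eif5a without GFP IP replicate 1. In the PABP1 IP against input Eif2b1 was lost without input replicate 2 (0.0549), and Eif2b4 and Eif2s1 without PABP1 IP replicate 2 or either input array (0.0995 and 0.153). Eif5 was lost there without any 1 of the PABP1 IP and input arrays (0.110). Between the antibodies Eif2s2 was lost without PABP1 IP replicate 1 (0.0549), Eif5a without GFP IP replicate 2 or PABP1 IP replicate 1 (0.0725), and Eif5b without either PABP1 IP array (0.0909). The calls of Eif1b, Eif1a, Eif2b2 and Eif2s3x in the GFP IP against input held without any 1 array.

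The genes grouped by elongation factor names included the member with the largest increase in both immunoprecipitations. Eef1e1, also known as the p18 component of the aminoacyl-tRNA synthetase complex, had levels of 6.21 and 6.28 in the GFP IP, 5.45 and 5.17 in the PABP1 IP and 2.57 and 2.41 in input. The 3 groups were apart, and Eef1e1 was 13.5-fold higher than input in the GFP IP (3.75 ± 0.17, adjusted p = 0.00145), 7.07-fold higher in the PABP1 IP (2.82 ± 0.17, adjusted p = 0.000862) and 1.91-fold higher between the antibodies (0.93 ± 0.17, adjusted p = 0.00653). It was read by 1 kept probe, and its name alone places it in this group. Eef1a1, which carries aminoacyl-tRNA to the ribosome, had 7.74 and 7.75 in the GFP IP, 9.55 and 9.02 in the PABP1 IP and 7.11 and 6.90 in input. On its brightest probe it was 4.84-fold higher than input in the PABP1 IP (2.27 ± 0.23, adjusted p = 0.00141). A second probe gave -0.12 there, so that increase depends on the probe. Eef1a1 was 2.91-fold lower in the GFP IP than in the PABP1 IP (-1.54 ± 0.23, adjusted p = 0.00285), with -0.77 on the second probe. Its smaller increase over input in the GFP IP (0.74 ± 0.23, adjusted p = 0.0408) was lost without any 1 of the GFP IP and input arrays (highest adjusted p = 0.177), and a second probe gave -0.89 there.

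The exchange factor subunits that recharge eEF1A were lower in the GFP IP than in the PABP1 IP. Eef1d had 7.04 and 6.83 in the GFP IP, 8.50 and 8.36 in the PABP1 IP and 8.53 and 8.34 in input, so only the GFP IP stood apart, 2.83-fold below input (-1.50 ± 0.17, adjusted p = 0.00267). Eef1g was lower than input in the GFP IP (-0.87 ± 0.19), higher in the PABP1 IP (0.57 ± 0.19) and lower between the antibodies (-1.44 ± 0.19), and Eef1b2 was lower between the antibodies (-1.19 ± 0.39, adjusted p = 0.0439). Eef2, the translocase, was on its brightest probe higher than input in the PABP1 IP (0.69 ± 0.22, adjusted p = 0.0425) and lay at 0.09 ± 0.22 in the GFP IP. Its other kept probes gave 1.28 and -1.05 in the GFP IP against input, so the probes disagree there. In the PABP1 IP against input they gave 2.32 and 0.09. Of the 6 tested genes 2 were higher and 2 lower in the GFP IP against input, 4 higher and 0 lower in the PABP1 IP against input, and 1 higher and 4 lower between the antibodies. Over all genes the shares higher and lower were 18.5% and 36.6%, 30.0% and 23.8%, and 22.3% and 41.3%. The call of Eef1g in the GFP IP against input was lost without GFP IP replicate 2 or either input array (highest adjusted p = 0.0902). In the PABP1 IP against input, Eef1g and Eef2 were lost without any 1 array other than PABP1 IP replicate 2 (0.216 and 0.190), and between the antibodies Eef1b2 likewise (0.142). After quantile normalization 2 elongation factor genes were higher and 0 lower between the antibodies, and their median lay 0.37 above that of all genes in place of 0.74 below it.

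**Figure D3:**
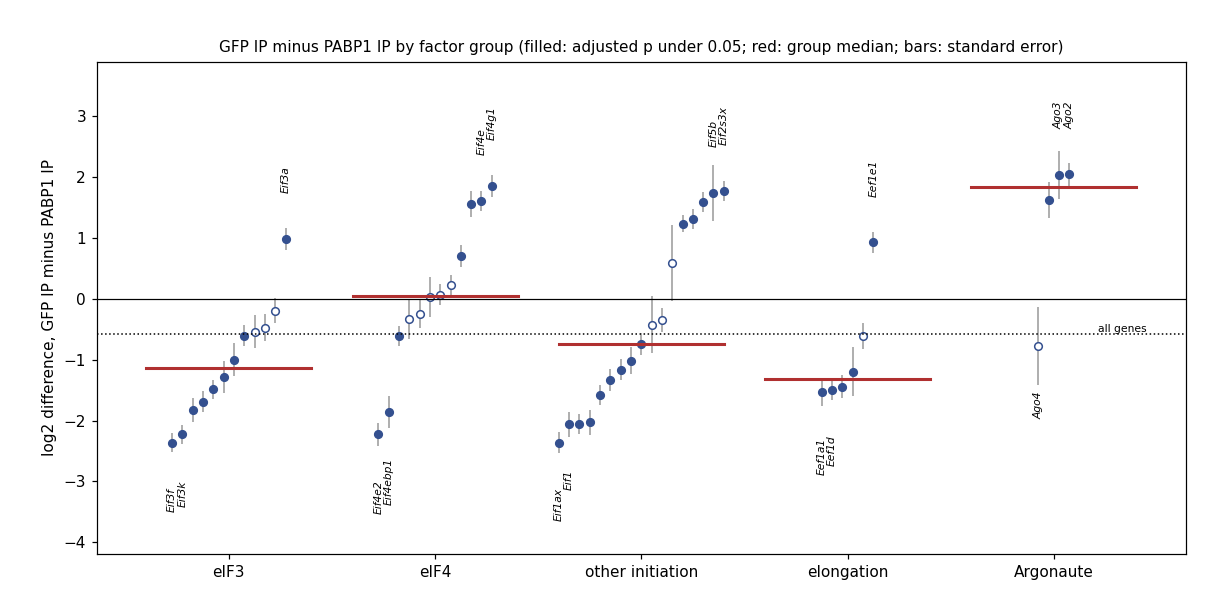
Log2 difference of the GFP IP minus the PABP1 IP (y axis) for each tested gene by group, with the standard error from limma, filled points past the threshold, a red bar at the group median and a dotted line at the median of all genes, -0.58. The medians are -1.14 for eIF3, 0.05 for eIF4, -0.74 for other initiation factors, -1.32 for elongation factors and 1.83 for the Argonaute genes, with members on both sides of 0 in each group.

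Among the members, 9 genes were taken from general knowledge to have TOP mRNAs (Eef1a1, Eef1b2, Eef1d, Eef1g, Eef2, Eif3e, Eif3f, Eif3h and Eif4b). They were listed with earlier results of these data known, so their values are a description and no independent test. Of these 9, 0 were higher and 8 lower in the GFP IP than in the PABP1 IP, beside 22.3% and 41.3% of all genes. Eef2, the ninth, was at -0.61 ± 0.22 (adjusted p = 0.0552). Their median of -1.44 lay 0.86 below that of all genes, and 0 of 9 lay above the median gene. Of the other 38 factor genes 11 were higher and 16 lower, with a median of -0.39. With the median of all probes 0 of the 9 were higher and 5 lower. After quantile normalization 1 of the 9 was higher and 1 lower, and their median lay 0.18 above that of all genes, so this placement depends on the scaling. Against input, 1 was higher and 5 lower in the GFP IP, which fell to 0 higher and 2 lower without GFP IP replicate 2 or either input array, to 0 higher and 4 lower without GFP IP replicate 1, and to 1 lower with the median of all probes. For the PABP1 IP, 5 were higher and 1 lower than input, which fell to 3 higher and 0 lower without any 1 array other than PABP1 IP replicate 2, and to 5 higher and 0 lower without that one.

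The sequence around the annotated start was read for the 41 factor genes with an entry in RefSeq's promoter table (build GRCm38.p6), to show which begin with a run of pyrimidines. The run was counted as at least 5 C or T letters without a break from the start base, on the strand of the gene. It was found at 3 of 51 starts (5.88%), against 1457 of 32851 starts in the table (4.44%). The 3 windows, 15 bases before the start and 15 from it, are shown with that run in capitals.
Eif3f: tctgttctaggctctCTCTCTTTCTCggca
Eef1a1: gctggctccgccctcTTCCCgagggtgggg
Eif2s3x: ctgccgagcattttcCTTTTCTCTCCgagc
The Eif3f window lies at chr7:108934400-108934429 on the plus strand, the Eef1a1 window at chr9:78481710-78481739 on the minus strand and the Eif2s3x window at chrX:94212637-94212666 on the minus strand. The runs are 11, 5 and 11 letters long. Eif3f and Eef1a1 are on the TOP list and were lower in the GFP IP than in the PABP1 IP, while Eif2s3x is not on it and was higher on its brightest probe. Of the 9 listed genes 5 had an entry and 2 of those had the run. A match is a description of these letters and of the annotated start. It does not by itself make a TOP motif, because the count did not ask which pyrimidine stood first, and the Eef1a1 run begins with T.

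The rule takes in the Argonaute genes through their older array names, and between the antibodies 3 of the 4 were higher in the GFP IP. Over all genes 22.3% were higher in that comparison. Ago2, which encodes the slicing Argonaute, had levels of 2.29 and 2.69 in the GFP IP, 0.46 and 0.43 in the PABP1 IP and 2.34 and 2.37 in input. The PABP1 IP arrays lay below the others, 3.77-fold under input (-1.91 ± 0.19, adjusted p = 0.00141), and Ago2 was 4.14-fold higher in the GFP IP than in the PABP1 IP (2.05 ± 0.19, adjusted p = 0.000729). Ago1 and Ago3 lay at 1.63 ± 0.29 and 2.04 ± 0.39 between the antibodies, but 1 of the 2 PABP1 IP arrays did not read either gene well above background, so these sizes rest on dim signals. Ago4 did not pass there (-0.77 ± 0.65) and was lower than input in the GFP IP (-2.38 ± 0.65, adjusted p = 0.0284), a call lost without GFP IP replicate 1 or either input array (highest adjusted p = 0.104). Relative to all genes, the median of the 4 was -2.30 in the PABP1 IP against input and 2.41 between the antibodies. With normexp background the calls of Ago1 and Ago3 between the antibodies were lost, and with spike-in scaling all 3.

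Probes of the same gene often disagreed in sign. Of 33 members with several kept probes, the sign differed between probes in 13 for the GFP IP against input, 12 for the PABP1 IP against input and 9 for the GFP IP against the PABP1 IP. The 9 were Eif1ax, Eif2s2, Eif2s3x, Eif3b, Eif3c, Eif3j1, Eif4e, Eif4e2 and Eif4g2. For Eif5, Eif4g3, Eif4a2, Eif1a, Ago1, Ago2 and Ago3 on the higher side, and for Eef1d, Eef1g, Eef2, Eif2s1 and Eif4ebp1 on the lower side, each kept probe gave the same sign between the antibodies.

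**Figure D4:**
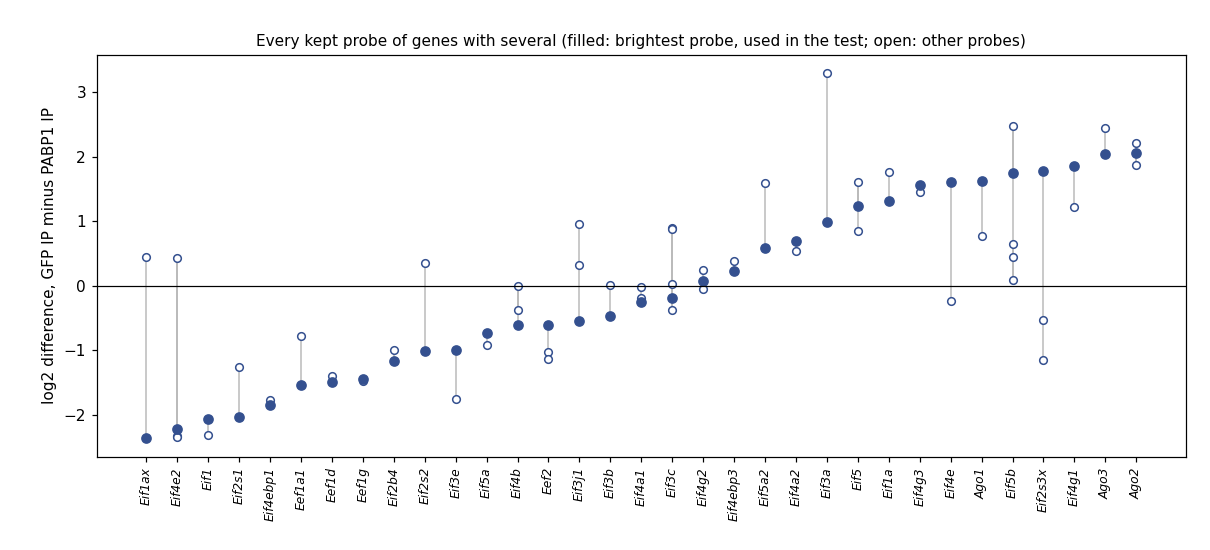
Log2 difference of the GFP IP minus the PABP1 IP (y axis) for every kept probe of the 33 genes with several, ordered by the brightest probe (filled, the one tested), with the other probes open. Eif1ax, Eif4e, Eif4e2 and Eif2s3x have probes on both sides of 0, while Eif4g1, Eif5, Ago2, Eef1d and Eif2s1 have probes on 1 side.

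Another 4 genes with a current Eif symbol sit on the array under names that the rule does not match, and they were read through their accessions. Eif3m (listed as Ga17) was lower than input in the GFP IP (-0.90 ± 0.18), higher in the PABP1 IP (1.24 ± 0.18) and lower between the antibodies (-2.14 ± 0.18), which is the pattern of Eif3f and Eif3k. Eif6 (listed as Itgb4bp), which keeps the ribosomal subunits apart, was lower in the GFP IP than in input (-1.55 ± 0.17) and than in the PABP1 IP (-1.50 ± 0.17). Eif4h (listed as Wbscr1), a helicase partner, and Eif4a3 (listed as Ddx48), a core of the exon junction complex, differed by -0.78 ± 0.24 and -1.31 ± 0.33 between the antibodies.

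Genes that act around the factors were read from lists of termination and recycling factors, regulators, mitochondrial translation factors and aminoacyl-tRNA synthetases. For reading the counts of these lists, over all genes 18.5% were higher and 36.6% lower in the GFP IP against input, 30.0% and 23.8% in the PABP1 IP against input, and 22.3% and 41.3% between the antibodies. Of 20 tested regulators, 7 were higher and 6 lower in the GFP IP against input, 4 higher and 8 lower in the PABP1 IP against input, and 9 higher and 3 lower between the antibodies, where their median lay 0.98 above that of all genes. Rps6kb1, the kinase S6K1 of the mTOR pathway, was 2.89 ± 0.22 higher in the GFP IP than in the PABP1 IP, and Ppp1r15b, which directs removal of phosphate from eIF2 alpha, was 2.66 ± 0.18 higher. Paip1 and Paip2, partners of PABP1, were higher than input in the GFP IP (1.78 ± 0.15 and 1.60 ± 0.16) and in the PABP1 IP (0.95 ± 0.15 and 2.002 ± 0.16). Mtor was lower between the antibodies (-1.31 ± 0.19), and Dhps, which starts the hypusine modification of eIF5A, was lower too (-1.88 ± 0.33).

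Of 20 synthetase genes 1 was higher and 14 lower (70%) in the GFP IP than in input, 4 higher and 10 lower in the PABP1 IP than in input, and 0 higher and 8 lower between the antibodies. Sars (-2.28 ± 0.21), Lars (-2.23 ± 0.20) and Cars (-2.05 ± 0.21) were the lowest against input in the GFP IP, and Farsb was the higher one (1.17 ± 0.37). Of 10 mitochondrial factor genes 1 was higher and 8 lower in the GFP IP than in input, 3 higher and 3 lower in the PABP1 IP than in input, and 0 higher and 7 lower between the antibodies. Mtif2 (-2.36 ± 0.44) and Tufm (-1.95 ± 0.21) were lower against input in the GFP IP, and Tsfm was higher (0.98 ± 0.17). Of 9 termination and recycling genes 0 were higher and 2 lower (22.2%, below the share of all genes) in the GFP IP than in input, 3 higher and 2 lower in the PABP1 IP than in input, and 2 higher and 5 lower between the antibodies. Mcts1 and Denr, which together act on recycled small subunits, were lower in the GFP IP than in the PABP1 IP (-2.02 ± 0.16 and -1.70 ± 0.30).

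In the authors' deposited table, 21 members could be matched through an accession of their own. The sign of the ratio of the authors' group means was the same as here for 16 of 21 in the GFP IP over input, 17 in the PABP1 IP over input and 20 in the GFP IP over the PABP1 IP. For some members of the same sign the sizes differed widely. Eif3a had a log2 ratio of 2.61 there and 0.13 here in the GFP IP over input. In the PABP1 IP over input Eef1b2 had 2.19 there and 0.19 here, and Eef1g had 1.99 and 0.57. For the GFP IP over input, the authors' deposited table gave log2 ratios of 0.24 for Eif3k and 0.51 for Eef1g, both called lower here (-0.52 and -0.87), and 0.45 for Eef1b2, which lay at -1.01 here. The other 2 of opposite sign in the authors' deposited table were Eif2a and Eif2s3y. For the PABP1 IP over input, Eif3a, called lower here (-0.86), had 0.98 in the authors' deposited table, and Eif3l, Eif2b5 and Eef1d, which did not pass here, also had the opposite sign. Between the antibodies Eif2s3y had the opposite sign in the authors' deposited table.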

How the data were processed

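RNA was read on 6 one-colour arrays in 3 groups of 2. The authors deposited 1 scanner file per array. Its values are spot intensity and a processed signal, made by background subtraction and detrending in Agilent Feature Extraction 9.1.3.1, per the file headers. The authors also deposited a table of group means of signal, scaled to the median per the file headers, which entered no test. Control and outlier spots were left out, spots of a probe were averaged on the log2 scale, and the 75th percentile of each array was subtracted. Names came from the files or, through accessions, from RefSeq's GRCm38.p6 table (22951 of 41174 probes), and 4521 further probes took the symbol of a matched probe that has their array name. A probe was kept if 1 group or more had it well above background on each of its arrays (21060 probes, of which 15578 on all 6 arrays), and a gene was read by its brightest kept probe. limma 3.58.1 in R 4.3.3 fitted all 14994 genes on all 6 arrays by group, with 3 residual degrees of freedom, two-sided, and Benjamini-Hochberg adjustment over all genes, with a threshold of 0.05. The fit was tested on simulated data.

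Replicates correlated across genes at 0.981 (GFP IP), 0.982 (PABP1 IP) and 0.992 (input), and arrays of different groups at 0.872 to 0.934; genes are not independent replicates. Precision is limited by the number of arrays. Replicate 1 of the PABP1 IP and replicate 2 of the GFP IP shared slide 1 with both input arrays, and slide 2 held the other 2 arrays. Named per comparison and subgroup were up to 4 members in each direction with the largest differences past the threshold whose groups did not overlap, a set of core factors, members with probes that differ in sign, and up to 3 genes in each direction from other lists. The members, the lists and the TOP genes were chosen with earlier results of these data known. Alternatives were other scalings, background, filters and probe rules, slide and replicate blocks, and each array left out.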

Additional observations from a re-analysis of the deposited data

How the results depend on the processing

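The 75th percentile is 1 of several ways to set the arrays against each other, and spike-in scaling moved the median of all genes most, to 0.50 in the GFP IP and 2.40 in the PABP1 IP against input and to -1.86 between the antibodies. Higher counts in the GFP IP against input (11) were 6 to 11 without 1 array, and lower counts (21) were 12 to 23 without 1 array, 1 with spike-in scaling and 10 with the median of all probes. In the PABP1 IP against input the higher count (19) was 42 with spike-in scaling and 12 to 18 without 1 array, and the lower count (10) was 5 with the median of all probes, normexp background or no filter on dim probes, 1 with spike-in scaling and 5 to 9 without 1 array. Between the antibodies the higher and lower counts (11 and 24) were 0 and 34 with spike-in scaling and 16 and 12 after quantile normalization, and leaving out 1 array gave 9 to 11 higher and 19 to 24 lower. Only 2 input arrays set the reference for both comparisons with input, and without either of them fewer genes passed in all. The cause of the other changes was not tested.

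Deviations of arrays with the same replicate number correlated at -0.65 between GFP IP and PABP1 IP, -0.06 between GFP IP and input and 0.20 between PABP1 IP and input, so the numbers were not taken to pair the arrays. With the replicate block 10 factor genes were higher and 18 lower in the GFP IP against input, 17 and 9 in the PABP1 IP against input and 11 and 23 between the antibodies. A crossed replicate block, chosen after seeing the data, gave 11 higher and 26 lower between the antibodies. It puts together the GFP IP and PABP1 IP arrays that share a slide, so it is not separate from the slide block. With the slide as a block the counts were 12 and 25, 19 and 10, and 11 and 26. Of the calls, 6 of 11 higher and 12 of 21 lower in the GFP IP against input, 12 of 19 and 5 of 10 in the PABP1 IP against input, and 9 of 11 and 18 of 24 between the antibodies held without any 1 array.

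With spike-in scaling the sign turned in the GFP IP against input for Eif3f (0.35), Eif3h (0.50), Eif3k (0.48), Eif1ax (0.22), Eif2b1 (0.36), Eif2s2 (0.0675) and Eef1g (0.13), in the PABP1 IP against input for Eif3a (1.42), Eif3b (0.82), Eif3c (0.43), Eif3d (1.44), Eif3j1 (1.74), Eif3l (2.17), Eif4b (1.76), Eif4e (2.24), Eif4e3 (2.20), Eif4ebp3 (0.0554), Eif4g1 (1.89), Eif4g3 (0.65), Eif2b4 (1.49), Eif2b5 (2.14), Eif2s3x (1.88), Eif5 (1.67), Eif5a2 (1.94), Eef1d (2.27) and Ago2 (0.36) (of which Eif3b, Eif3c, Eif4ebp3, Eif4g3 and Ago2 did not pass and the others passed as higher) and in the GFP IP against the PABP1 IP for Eif3a (-0.29), Eif4a2 (-0.57), Eif4e3 (-1.24), Eif4g2 (-1.20), Eif5 (-0.0355) and Eef1e1 (-0.34). After quantile normalization the sign turned in the GFP IP against input for Eif3h (0.14) and Eef1g (0.0002) and in the GFP IP against the PABP1 IP for Eif3c (0.93), Eif3d (0.45), Eif3l (0.0350), Eif4a1 (1.00), Eif4b (0.0547), Eif5a (0.50), Eef1b2 (0.29) and Eef2 (0.68). With the median of all probes the sign turned in the GFP IP against input for Eif3h (0.0691) and Eif3k (0.0562). With normexp background the sign turned in the GFP IP against input for Eif3h (0.10) and Eif3k (0.0650). With the mean of a gene's kept probes the sign turned in the GFP IP against input for Eif1ax (0.28) and Eef1a1 (-0.0789) and in the PABP1 IP against input for Eif4b (0.20), Eif4e (0.49), Eif2s2 (-0.67) and Eif5a2 (0.91).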
